A study of Mus musculus with 2 samples.

Results

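The genes described here encode the CC chemokines that draw monocytes into tissue and the receptors that read them: the ligands Ccl2, Ccl7, Ccl8, Ccl12, Ccl3 and Ccl4 and the receptors Ccr2 and Ccr1. They were taken by symbol, 8 of the 32285 genes in the count matrices, and all 8 were found. Their raw UMIs (unique molecular identifiers, each standing for 1 captured RNA molecule) were summed per cell class and library in cells that had 300 genes or more and no more than 20% of UMIs from mitochondria. The 2 samples are single-cell libraries from the enthesis of the Achilles tendon, where tendon joins bone. One is from SKG mice under tail suspension (TS), which takes the load off the hind limbs, and the other from SKG mice without tail suspension (NTS). SKG mice, the strain of both groups, carry a mutation of the T cell kinase Zap70 and are prone to autoimmune arthritis and enthesitis. The sources used here give neither the age or sex of the mice, nor the number pooled, nor any induction of arthritis.

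CCL2, CCL7 and the mouse chemokine CCL12 bind CCR2, the receptor by which Ly6C-high monocytes leave the bone marrow and enter inflamed tissue. CCL3 and CCL4 are the macrophage inflammatory proteins. CCL3 binds CCR1, and CCL7 can also signal through CCR1. CCL8 in the mouse is known as a CCR8 ligand as well as a member of the monocyte chemoattractant cluster. In tendon and joint tissue, fibroblasts and macrophages are known sources of CCL2.

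With 1 library per group there is no replicate check, so no test was run and a difference describes these 2 libraries only. Levels are the gene's UMIs over all UMIs of the class, scaled to 1000000 (CPM), with exact Poisson 95% intervals, and ratios are log2 of TS over NTS with exact conditional binomial 95% intervals. All intervals cover counting error only. The TS library held 15545 barcodes and 166606774 UMIs, and 13991 cells were kept with a median of 8363 UMIs. The NTS library held 11430 barcodes and 121868851 UMIs, and 10819 cells were kept with a median of 4653 UMIs. The libraries shared 47 barcodes, 37 of them among kept cells. Neutrophil-like cells were 10.2% of kept cells in TS and 49.0% in NTS, and fibroblast-lineage cells were 48.6% in TS and 19.5% in NTS. All the markers listed for macrophage-like (19), neutrophil-like (15) and fibroblast-lineage cells (53) had at least 100 UMIs in those classes, as had 9 of 12 in monocyte-like and 15 of 19 in MHC class II-high cells. Where shares of cells are compared at 1000 UMIs each, 13511 TS and 10644 NTS cells were deep enough. Most fibroblast-lineage, macrophage-like and neutrophil-like cells lay in different clusters in the 2 libraries, which is stated beside the results it touches. Cluster 21 (350 cells) was led by the osteoclast genes Acp5, Mmp9 and Ctsk together with proliferation genes. Its osteoclast markers summed to 317 CPM in TS and 17515 CPM in NTS, so it was not compared as a class.

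The 6 ligand genes lie on mouse chromosome 11 (GRCm38) and each has 3 exons. Ccl2 (chr11:82035571-82037453), Ccl7 (chr11:82045712-82047525), Ccl12 (chr11:82101845-82103400) and Ccl8 (chr11:82115185-82116799) follow each other on the plus strand. Ccl3 (chr11:83647844-83649355, minus strand) and Ccl4 (chr11:83662584-83664683, plus strand) form a second group. The receptor genes are on chromosome 9: Ccr1 at chr9:123962124-123968692 on the minus strand and Ccr2 at chr9:124101950-124113557 on the plus strand.

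**Figure D1:**
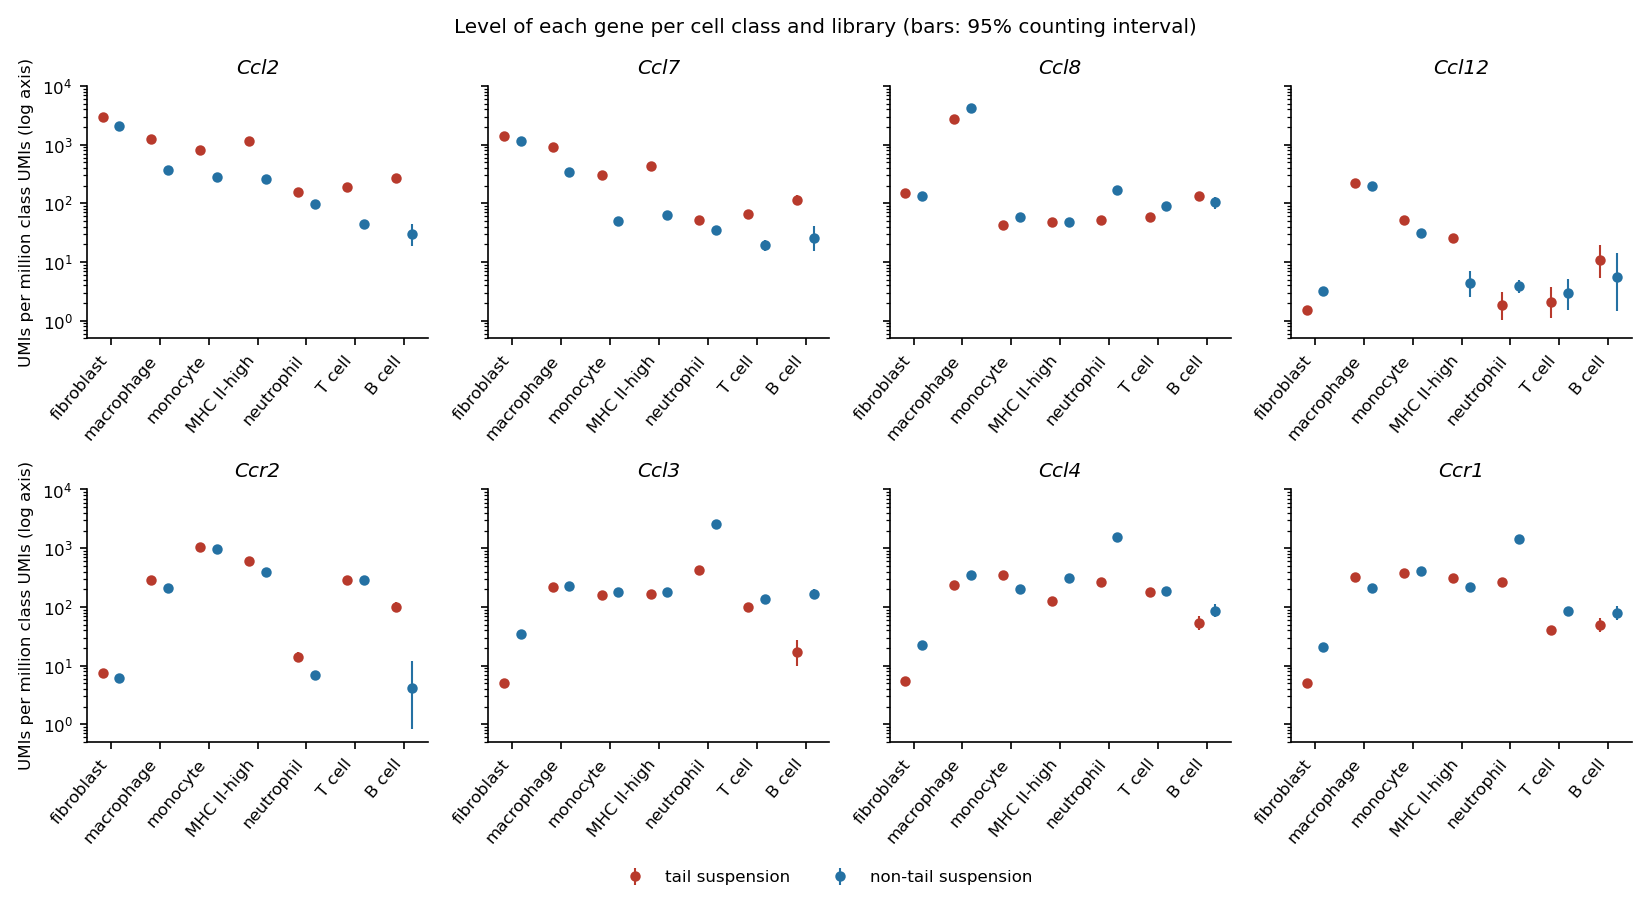
Level of each gene in 7 cell classes, in CPM on a log axis, with TS (red) left of NTS (blue) in each class and bars for the 95% Poisson interval. Ccl2 and Ccl7 peak in the fibroblast lineage, Ccl8 and Ccl12 in macrophage-like cells, Ccr2 in monocyte-like cells, and Ccl3, Ccl4 and Ccr1 in NTS neutrophil-like cells.

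Ccl2, the main CCR2 ligand, was highest in fibroblast-lineage cells. It reached 2971 CPM (2960 to 2981) in TS and 2077 CPM (2065 to 2089) in NTS fibroblast-lineage cells, a log2 ratio of 0.52 (0.51 to 0.53). This class held 86.5% of all Ccl2 UMIs in TS and 88.2% in NTS, so the source was the same in both libraries although fibroblast-lineage cells made up a larger share of TS. When every cell was thinned to 1000 UMIs, 46.8% of TS and 48.2% of NTS fibroblast-lineage cells had a Ccl2 UMI (77.6% in TS and 81.7% in NTS unthinned, at median depths of 11760.5 UMIs in TS and 24516 in NTS). In T cell-like cells, which are not a known source, the thinned shares were 18.7% in TS and 4.47% in NTS (median depths of 3933 UMIs in TS and 5376 in NTS).

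Ccl7, the neighbouring gene and a ligand of CCR2, was likewise highest in the fibroblast lineage among the classes with at least 50 cells in both libraries. It had 1432 CPM (1425 to 1440) in TS and 1150 CPM (1141 to 1159) in NTS fibroblast-lineage cells, a log2 ratio of 0.32 (0.30 to 0.33). Fibroblast-lineage cells held 85.5% of its UMIs in TS and 85.8% in NTS. The thinned share with a Ccl7 UMI was 37.3% in TS and 40.9% in NTS, against 7.38% of TS and 1.91% of NTS T cell-like cells. For both genes the share of cells was slightly lower in TS while the summed level was higher. Markers of erythroid cells summed to 1231 CPM in TS and 64.5 CPM in NTS fibroblast-lineage cells (7 of 7 higher, none at 0), and their part in these ratios was not tested. The top 10% of fibroblast-lineage cells held 60.1% of the class's Ccl2 UMIs in TS and 49.2% in NTS.

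The fibroblast-lineage ratio of Ccl2 was not uniform over clusters. Most TS cells of the class lay in clusters 1, 3, 4, 5, 10, 22 and 23, and most NTS cells in clusters 0 and 2. In the 7 clusters with at least 50 cells of each library, Ccl2 was higher in TS in 5 and lower in 2. The lowest ratio was in cluster 0, led by the tendon genes Thbs4, Col1a1 and Comp: 1089 CPM in TS (103 cells) and 2384 CPM in NTS (892 cells), a log2 ratio of -1.13. The highest was in cluster 1, led by Tm4sf1 and fibrillar collagen genes: 5012 CPM in TS (840 cells) and 2733 CPM in NTS (110 cells), a log2 ratio of 0.87. The mean of the 7 within-cluster ratios was 0.17 for Ccl2 and 0.02 for Ccl7, so the higher pooled level did not hold in every kind of fibroblast.

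Among the clusters compared, cluster 3, led by Ptx3, Pi16 and Tnfaip6, carried Ccl2, Ccl7 and Ccl8 together. Its Ccl2 level was 4823 CPM in TS and 2876 CPM in NTS. Its Ccl7 level was 3013 CPM in TS and 1564 CPM in NTS, and its Ccl8 level was 393 CPM in TS and 392 CPM in NTS. Cluster 10, led by Prg4 (lubricin) and Clic5, was lower in both CCR2 ligands: 814 CPM in TS and 569 CPM in NTS for Ccl2, 219 CPM in TS and 223 CPM in NTS for Ccl7. Its Ccl8 was 42.3 CPM in TS and 255 CPM in NTS, the lowest ratio of Ccl8 among these clusters at -2.59. The NTS value came from 88 cells. Ccl12, which was highest in macrophage-like cells, went the same way in this cluster, at 1.72 CPM in TS and 15.7 CPM in NTS (-3.19). The part of macrophage RNA in these values was not tested.

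Pi16 and Prg4 marked a like contrast in single cells. Thinned fibroblast-lineage cells with a UMI of Pi16, a marker of adventitial fibroblasts, had Ccl2 in 58.8% of TS and 51.0% of NTS cells, against 39.8% of TS and 45.8% of NTS Pi16-negative cells. For Ccl7 the shares were 52.4% of TS and 49.6% of NTS Pi16-positive cells, against 28.4% of TS and 33.0% of NTS Pi16-negative cells. Dpp4, another adventitial marker, was found in 86 thinned TS cells and did not show this: 39.5% of them had Ccl2 (29.2% to 50.7%), against 46.9% of TS cells without it, and 32.6% had Ccl7 (22.8% to 43.5%), against 37.4% without it. Cells with a Prg4 UMI had Ccl2 less often, at 43.6% in TS and 45.9% in NTS, against 62.1% of TS and 50.7% of NTS cells without one. Prg4 UMIs were found in 5424 of 6565 TS and 1051 of 2056 NTS fibroblast-lineage cells, so they were found well beyond cluster 10.

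The largest ratios of Ccl2 and Ccl7 were in immune cells. In macrophage-like cells Ccl2 had 1261 CPM (1243 to 1280) in TS and 374 CPM (366 to 382) in NTS, a log2 ratio of 1.75 (1.72 to 1.79). Ccl7 in the same cells had 911 CPM in TS and 341 CPM in NTS, a log2 ratio of 1.42 (1.38 to 1.46). The thinned shares of macrophage-like cells were 44.2% in TS and 21.5% in NTS for Ccl2, and 33.1% in TS and 15.2% in NTS for Ccl7. Both ligands were also higher in the TS library within each macrophage cluster, by log2 ratios of 0.83 and 1.19 for Ccl2 and of 0.48 and 1.15 for Ccl7 in clusters 15 and 17.

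Monocyte-like cells and MHC class II-high cells showed the same direction. Ccl2 had 818 CPM in TS and 283 CPM in NTS monocyte-like cells (1.53, 1.44 to 1.63), and 1149 CPM in TS and 258 CPM in NTS MHC class II-high cells (2.15, 2.06 to 2.25). Ccl7 had 299 CPM in TS and 50.7 CPM in NTS monocyte-like cells (2.56, 2.35 to 2.77). In MHC class II-high cells Ccl7 had 440 CPM in TS and 63.7 CPM in NTS (2.79, 2.60 to 2.98). Thus Ccl2 and Ccl7 passed a 2-fold difference in all 3 of these mononuclear phagocyte classes, and not in the fibroblast lineage. The same held in lymphocyte classes. T cell-like cells were at 2.07 (1.84 to 2.31) for Ccl2 and 1.77 (1.42 to 2.14) for Ccl7. B cell-like cells were at 3.15 for Ccl2 and 2.14 for Ccl7, with 22 and 19 UMIs in NTS. At Leiden resolution 2.0 the ratio of Ccl7 in macrophage-like cells was 0.96 and that of Ccl2 in MHC class II-high cells 0.98, just under 2-fold. At that resolution Ccl7 in MHC class II-high cells was at 1.03, and over 13 other settings it ranged from there to 3.0. Over 11 other settings Ccl7 in monocyte-like cells ranged from 1.63 to 4.30, the lowest with cells assigned by their markers alone and the highest with doublets kept.

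T cell-like cells also had more Ccl2 in TS, 189 CPM against 45.0 CPM in NTS, and B cell-like cells had 267 CPM in TS and 22 UMIs in all in NTS. Markers of fibroblasts moved the same way in the immune classes. Summed over 53 fibroblast-lineage markers, the level in macrophage-like cells was 2482 CPM in TS and 773 CPM in NTS, with 45 of 53 markers higher in TS and 1 (TS) and 3 (NTS) at 0. In monocyte-like cells it was 2278 CPM in TS and 779 CPM in NTS (47 of 53 higher), and in MHC class II-high cells 2521 CPM in TS and 1154 CPM in NTS (45 of 53 higher). The level of Ccl2 in macrophage-like cells was 42.4% of the fibroblast-lineage level in TS and 18.0% in NTS. For the fibroblast marker sum the same quotient was 3.0% in TS and 0.885% in NTS. In MHC class II-high cells the quotient of Ccl2 was 38.7% in TS and 12.4% in NTS, against 3.05% in TS and 1.32% in NTS for the marker sum. In T cell-like cells the 2 quotients lay close, at 6.37% for Ccl2 and 4.53% for the markers in TS, and at 2.17% for Ccl2 and 1.35% for the markers in NTS. For Ccl7 the quotient was 63.6% in TS and 29.7% in NTS macrophage-like cells, and 30.7% in TS and 5.54% in NTS MHC class II-high cells. In monocyte-like cells it was 27.5% in TS and 13.6% in NTS for Ccl2, 20.8% in TS and 4.41% in NTS for Ccl7, and 2.75% in TS and 0.892% in NTS for the marker sum. The part of fibroblast RNA in these levels and in the TS to NTS ratios was not tested.

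The proportion of Ccl2 to Ccl7 UMIs also differed between classes. Per Ccl7 UMI there were 2.07 Ccl2 UMIs in TS and 1.81 in NTS fibroblast-lineage cells, and 1.38 in TS and 1.10 in NTS macrophage-like cells. Monocyte-like cells had 2.74 in TS and 5.57 in NTS, and MHC class II-high cells 2.61 in TS and 4.05 in NTS. Mast cell-like cells had 0.536 in TS (0.481 to 0.598), the lowest of the classes with a value. In these 68 TS cells Ccl7 reached 4757 CPM (4461 to 5068) and Ccl2 2552 CPM (2336 to 2782), and the thinned share with a Ccl7 UMI was 82.1% of 56 cells. The NTS library had 9 mast cell-like cells, too few for a level.

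Cells with a UMI of Ccl2 had Ccl7 more often than cells without one. Among thinned fibroblast-lineage cells with a Ccl2 UMI, 63.3% of TS and 62.4% of NTS cells also had Ccl7, against 14.4% of TS and 20.9% of NTS cells without Ccl2. In macrophage-like cells the shares with Ccl7 were 51.3% of TS and 38.9% of NTS Ccl2-positive cells, against 18.6% of TS and 8.65% of NTS Ccl2-negative cells. Over 21 class-by-library units the profile of Ccl7 was the member profile most like that of Ccl2 (Pearson r = 0.94 of log2(CPM + 10), a description over units that share libraries and depth). Outside the members, Fn1, Rnase4 and Mt1 were closest to Ccl2 among 6652 genes (r = 0.91 each), and Plau (0.88), Psd3 (0.87) and Pmp22 (0.84) to Ccl7.

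**Figure D2:**
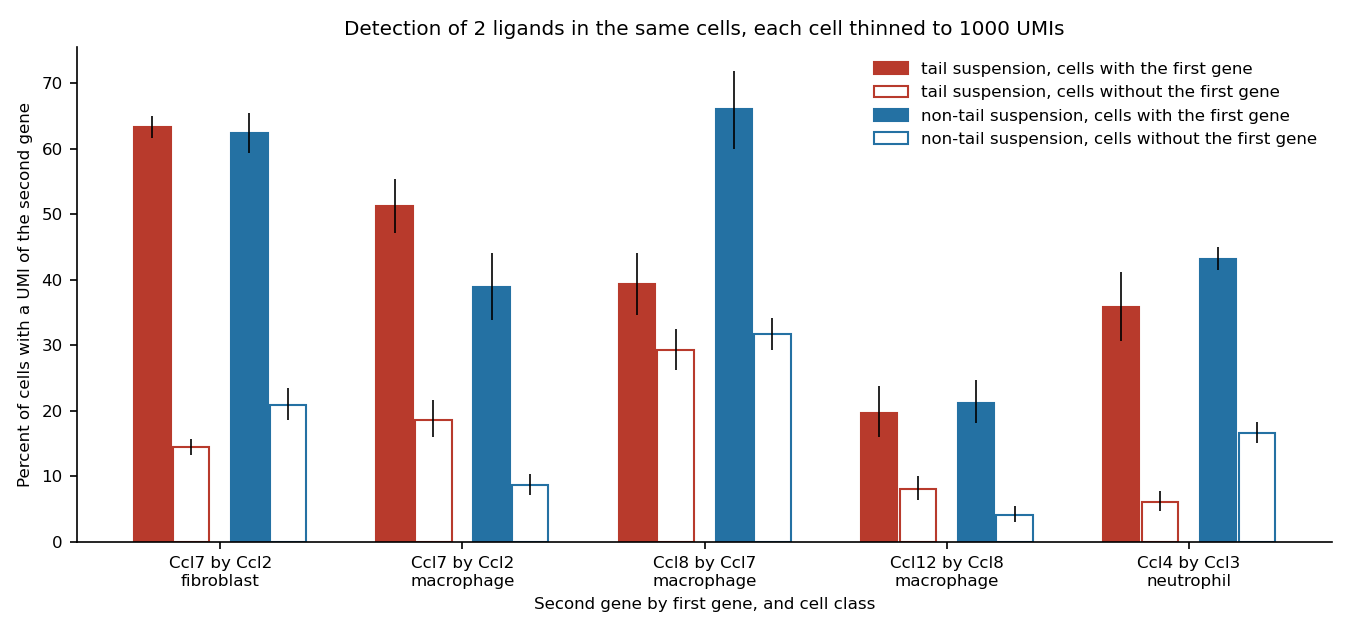
Percent of cells with a UMI of the second ligand among cells with (filled) and without (open) a UMI of the first, each cell thinned to 1000 UMIs, for 5 pairs of gene and class in TS (red, left) and NTS (blue, right), with 95% Clopper-Pearson intervals. In each pair and library the filled bar is above the open one, as with Ccl7 in 63.3% of TS Ccl2-positive and 14.4% of TS Ccl2-negative fibroblast-lineage cells.

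Ccl8 and Ccl12 were macrophage ligands in both libraries. Ccl8 had 2774 CPM (2747 to 2802) in TS and 4256 CPM (4230 to 4282) in NTS macrophage-like cells, a log2 ratio of -0.62 (-0.63 to -0.60). Ccl12 had 224 CPM (217 to 232) in TS and 195 CPM (190 to 201) in NTS macrophage-like cells, a log2 ratio of 0.20 (0.13 to 0.26). Macrophage-like cells held 67.6% of Ccl8 UMIs in TS and 87.6% in NTS, and 74.1% of Ccl12 UMIs in TS and 88.8% in NTS. The median ratio over all genes in this class was 0.23, and relative to it Ccl8 was at -0.85 and Ccl12 at -0.03, so the direction of Ccl12 flips with the scaling. Over 13 other processing settings Ccl8 ranged from -1.36 to -0.59, 5 of them at least 2-fold lower, and Ccl12 from -0.45 to 0.23.

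The promoters of Ccl8, Ccl12 and Ccl3 are shown because the first 2 share the macrophage pattern and Ccl3 has a neutrophil pattern. Each is the 250 bases before the annotated start, 5′ to 3′ on the gene's strand, from RefSeq on GRCm38.p6, and capitals mark a TATA box (TATAAAA) or the core of the PU.1 motif (GAGGAA, or TTCCTC on the other strand). PU.1 is a transcription factor of myeloid cells. The positions are chr11:82114935-82115184 (plus) for Ccl8, chr11:82101595-82101844 (plus) for Ccl12 and chr11:83649379-83649628 (minus) for Ccl3.
Ccl8: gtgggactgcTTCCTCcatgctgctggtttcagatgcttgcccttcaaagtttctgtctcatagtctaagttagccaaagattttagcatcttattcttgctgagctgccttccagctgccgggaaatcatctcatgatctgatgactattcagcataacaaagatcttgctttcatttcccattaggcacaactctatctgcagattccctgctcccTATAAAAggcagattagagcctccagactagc
Ccl12: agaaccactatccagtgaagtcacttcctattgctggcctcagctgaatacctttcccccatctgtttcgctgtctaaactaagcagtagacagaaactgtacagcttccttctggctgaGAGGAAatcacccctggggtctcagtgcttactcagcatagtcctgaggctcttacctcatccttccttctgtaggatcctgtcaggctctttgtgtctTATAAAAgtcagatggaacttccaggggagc
Ccl3: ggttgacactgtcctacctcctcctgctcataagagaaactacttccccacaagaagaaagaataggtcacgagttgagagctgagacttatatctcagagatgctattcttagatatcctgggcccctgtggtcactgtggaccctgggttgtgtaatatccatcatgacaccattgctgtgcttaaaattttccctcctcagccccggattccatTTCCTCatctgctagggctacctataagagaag
Of the 8 genes, 5 had a promoter in the table (Ccl8, Ccl12, Ccr2, Ccl3 and Ccr1). TATAAAA began 32 bases before the start of Ccl8 and 31 bases before that of Ccl12, and none of the other 3 windows held it. It occurs in 4.98% of 32851 promoters of this length. The PU.1 core, in 23.3% of them, began 240 bases before the start in Ccl8, 130 in Ccl12, 33 in Ccl3 and 129 in Ccr1. AP-1 (TGANTCA, 6.75% of promoters), GAS (TTCNNNGAA, 7.02%), C/EBP (TTGCNNAA, 9.56%) and the NF-kB consensus (3.90%) were also searched on both strands, and these letters were not in the 5 windows. These matches describe the sequence only.

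In thinned macrophage-like cells, 32.5% of TS and 36.9% of NTS cells had a Ccl8 UMI (57.9% in TS and 66.0% in NTS unthinned, at median depths of 9662 UMIs in TS and 13902 in NTS). T cell-like cells, which are not a known source, had it in 6.81% of TS and 10.8% of NTS cells. Monocyte-like cells (3.66% in TS, 7.52% in NTS) and MHC class II-high cells (5.82% in TS, 5.92% in NTS) were at or below those shares and are read as background. The Ccl12 share was 11.8% of TS and 10.4% of NTS macrophage-like cells, against 0.284% of TS and 0.478% of NTS T cell-like cells.

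The pooled ratio of Ccl8 differed in sign from the ratios within the 2 macrophage clusters. Of the TS macrophage-like cells 1226 lay in cluster 17, led by Mrc1, Pf4 and C1q genes, and 97 in cluster 15, led by C1q and MHC class II genes; of the NTS cells 237 lay in cluster 17 and 1480 in cluster 15. Ccl8 had 6958 CPM in TS and 4523 CPM in NTS within cluster 15 (0.62), and 2439 CPM in TS and 2274 CPM in NTS within cluster 17 (0.10). The cluster with the higher Ccl8 level held most NTS cells and few TS cells. Ccl12 was higher in TS in both, with 304 CPM in TS and 212 CPM in NTS in cluster 15 and 218 CPM in TS and 70.3 CPM in NTS in cluster 17 (1.63).

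Ccl8 was detected more often in macrophage-like cells with most of the macrophage markers tried, those of resident macrophages among them. In TS this did not hold for Trem2. Thinned macrophage-like cells with the mannose receptor gene Mrc1 had a Ccl8 UMI in 38.6% of TS and 62.9% of NTS cells, against 25.4% of TS and 30.4% of NTS cells without Mrc1. With the folate receptor gene Folr2 the shares were 37.6% in TS and 62.1% in NTS, against 31.4% in TS and 33.4% in NTS without it, and the TS intervals overlapped (31.6% to 43.9% with Folr2, 28.6% to 34.2% without). With Ms4a7, another macrophage marker, they were 41.8% in TS and 53.1% in NTS, against 29.2% in TS and 24.0% in NTS without it. With Trem2, a lipid receptor gene, they were 32.2% in TS and 46.7% in NTS, against 32.7% in TS and 31.8% in NTS without it. The MHC class II gene H2-Ab1 went the other way, with overlapping intervals. The shares were 29.8% in TS and 35.8% in NTS with it, against 35.2% in TS and 44.7% in NTS without it. The scavenger receptor gene Cd163 was found in 379 TS cells, of which 45.1% had Ccl8, against 27.4% of TS cells without it. In NTS 24 cells had a Cd163 UMI, and all of them had Ccl8. Cells with Mrc1 also had Ccl12 more often, 16.8% in TS and 17.8% in NTS, against 6.01% in TS and 8.57% in NTS without Mrc1. For Ccl12, Folr2, Cd163 and Ms4a7 went the same way, with some overlapping intervals, and Trem2 did not. Cells with Trem2 had Ccl12 in 9.68% of TS and 10.6% of NTS cells, against 13.1% in TS and 10.4% in NTS without it.

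Ccl8 was concentrated in few cells. The top 10% of macrophage-like cells held 82.3% of the class's Ccl8 UMIs in TS and 68.9% in NTS, and 79.8% in TS and 82.6% in NTS of its Ccl12 UMIs. Ccl12 accompanied Ccl8: 19.7% of TS and 21.2% of NTS macrophage-like cells with a Ccl8 UMI had Ccl12, against 8.04% of TS and 4.12% of NTS cells without one. Ccl8 was found in 39.3% of TS and 66.1% of NTS cells with Ccl7, against 29.2% of TS and 31.7% of NTS cells without it. The genes whose profiles over units were most like that of Ccl8 were Npl (r = 0.80), C1qb (0.76) and Folr2 (0.76), and those most like Ccl12 were Folr2, Ms4a7 and Adgre1 (0.90 each), the last of which encodes the macrophage marker F4/80.

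Outside macrophages, 25.8% of Ccl8 UMIs in TS and 6.14% in NTS lay in fibroblast-lineage cells, at 150 CPM in TS and 131 CPM in NTS. The thinned share there was 12.6% in TS, above that of T cell-like cells. It lay within the interval of TS B cell-like cells (11.8%, 8.51% to 15.9%). In NTS the fibroblast-lineage share was 9.53%, at the level of the T cell-like background, beside 12.9% of B cell-like cells. Relative to macrophage-like cells, Ccl8 in the fibroblast lineage stood at 5.41% in TS and 3.08% in NTS, and the macrophage marker sum at 4.14% in TS and 2.90% in NTS. The 2 quotients were thus close in both libraries, and how much of the fibroblast Ccl8 was carried over was not tested. In single fibroblast-lineage cells Ccl8 tracked Pi16, with a UMI in 19.9% of TS and 12.6% of NTS Pi16-positive cells, against 8.29% of TS and 6.78% of NTS Pi16-negative cells.

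Ccr2, the receptor for Ccl2, Ccl7 and Ccl12, marked monocyte-like cells to nearly the same level in both libraries. It had 1054 CPM (1028 to 1081) in TS and 965 CPM (935 to 995) in NTS, a log2 ratio of 0.13 (0.07 to 0.19), with a range of -0.13 to 0.42 over 11 other processing settings. In thinned cells 59.8% of TS and 59.9% of NTS monocyte-like cells had a Ccr2 UMI (97.0% in TS and 98.1% in NTS unthinned, at median depths of 7853.5 UMIs in TS and 12791 in NTS). Fibroblast-lineage cells, which are not known to express it, had thinned shares of 0.670% in TS and 0.632% in NTS. The top 10% of monocyte-like cells held 24.5% of the class's Ccr2 UMIs in TS and 24.8% in NTS, so the receptor was spread over many cells, unlike Ccl8 in macrophages.

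MHC class II-high cells came next, with 602 CPM (589 to 615) of Ccr2 in TS and 389 CPM (369 to 409) in NTS, a log2 ratio of 0.63 (0.55 to 0.71). Macrophage-like cells had 283 CPM in TS and 210 CPM in NTS (0.43, 0.37 to 0.49), and T cell-like cells 284 CPM in TS and 282 CPM in NTS (0.01, -0.10 to 0.12). The levels of macrophage-like and T cell-like cells did not differ beyond their intervals in TS. Among T cell clusters, cluster 20, led by Ctla4, Tnfrsf4 and Il2ra, which regulatory and activated T cells use, had the highest Ccr2, with 629 CPM in TS and 606 CPM in NTS. Neutrophil-like cells had 14.2 CPM in TS and 6.80 CPM in NTS and fibroblast-lineage cells 7.59 CPM in TS and 6.06 CPM in NTS.

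Where the Ccr2 UMIs lay differed more than the level per class. MHC class II-high cells held 37.2% of Ccr2 UMIs in TS and 11.3% in NTS, while macrophage-like cells held 18.2% in TS and 38.4% in NTS. The share in monocyte-like cells was 28.5% in TS and 30% in NTS. The number of cells differed the same way for the first 2: MHC class II-high cells were 10.6% of kept cells in TS and 2.82% in NTS, and macrophage-like cells 9.46% in TS and 15.9% in NTS. Monocyte-like cells were 5.27% in TS and 2.98% in NTS.

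Among monocyte-like cells, Ccr2 was found in 59.4% of TS and 63.3% of NTS cells with the classical monocyte gene Ly6c2, against 60% of TS and 52.5% of NTS cells without it. With the MHC class II gene H2-Ab1 the shares were 56.1% in TS and 56.8% in NTS, against 63.0% in TS and 65.5% in NTS without it. In macrophage-like cells Ccr2 had 275 CPM in TS and 117 CPM in NTS within cluster 17 (1.23), and 381 CPM in TS and 223 CPM in NTS within cluster 15 (0.78). The genes most like Ccr2 over the units included AI504432 (r = 0.93) and the leukotriene receptor gene Cysltr1 (0.90).

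**Figure D3:**
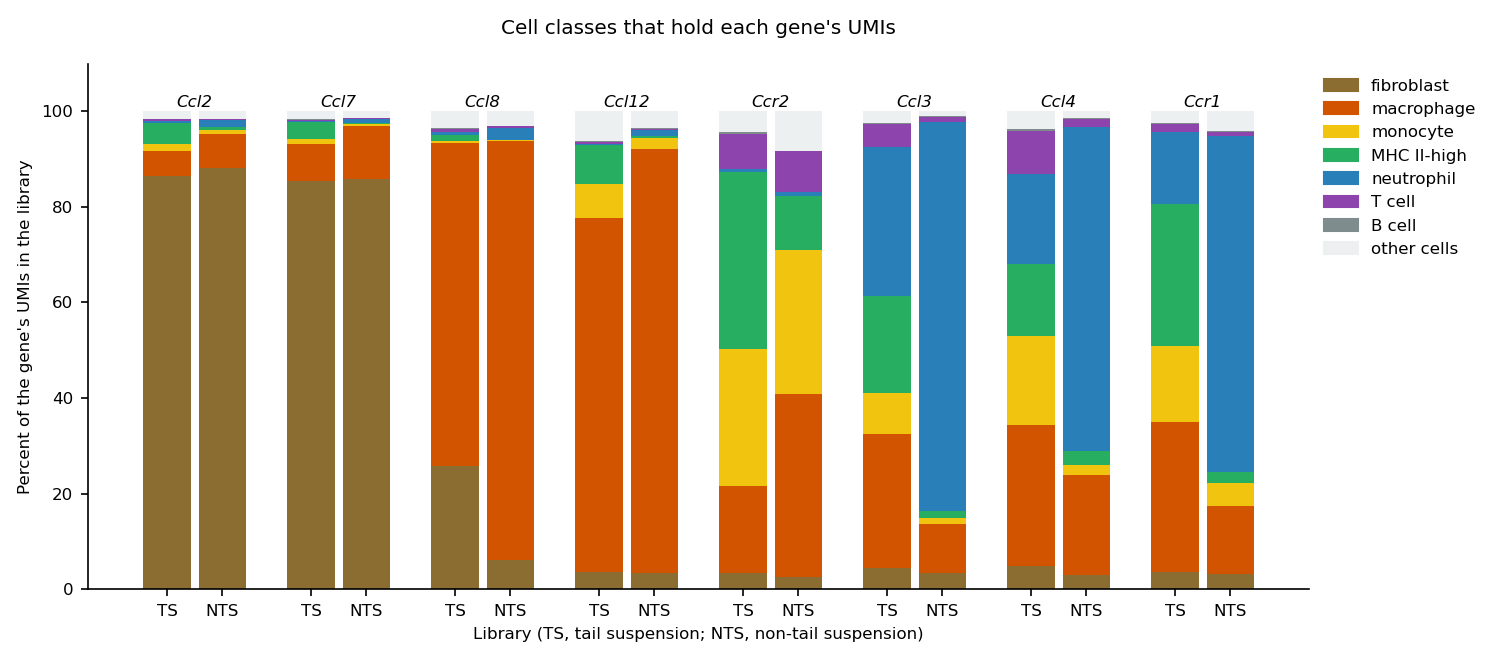
Percent of each gene's UMIs in kept cells that lay in each cell class, stacked to 100%, with the TS bar left of the NTS bar. Fibroblast-lineage cells hold most of Ccl2 and Ccl7 in both libraries, and neutrophil-like cells hold 31% of Ccl3 in TS and 81.6% in NTS.

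Ccl3 and Ccl4 were neutrophil ligands in the NTS library and were spread over myeloid classes in the TS library. In neutrophil-like cells Ccl3 had 423 CPM (409 to 438) in TS and 2548 CPM (2524 to 2571) in NTS, 6.02-fold lower in TS (log2 ratio -2.59, -2.64 to -2.54). Ccl4 had 263 CPM (252 to 274) in TS and 1564 CPM (1545 to 1582) in NTS neutrophil-like cells, 5.95-fold lower in TS (-2.57, -2.64 to -2.51). The thinned share with a Ccl3 UMI was 24.6% in TS and 60.6% in NTS, and that with Ccl4 was 13.4% in TS and 32.7% in NTS. Over 13 other processing settings the ratio ranged from -3.47 to -1.60 for Ccl3 and from -3.94 to -1.41 for Ccl4, the lowest in cells with at least 1000 genes and the highest in cells thinned to 1000 UMIs. The unthinned shares were 39.9% in TS and 75.2% in NTS for Ccl3, at median depths of 4263 UMIs in TS and 2812 in NTS. Fibroblast-lineage cells, which are not a known source, had thinned shares of 0.533% in TS and 3.11% in NTS for Ccl3, and 0.548% in TS and 1.61% in NTS for Ccl4.

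Ccr1, a receptor for Ccl3 and Ccl7, had the same pattern in neutrophil-like cells. It had 264 CPM (253 to 276) in TS and 1411 CPM (1394 to 1429) in NTS, 5.34-fold lower in TS (-2.42, -2.48 to -2.35). Its thinned share was 31.2% in TS and 74.4% in NTS, against 0.487% of TS and 2.09% of NTS fibroblast-lineage cells. Neutrophil-like cells held 15.1% of all Ccr1 UMIs in TS and 70.3% in NTS.

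The neutrophil-like cells of the 2 libraries were of different kinds, and the ratios within clusters were smaller. Most TS cells lay in cluster 11, led by the granule genes Ngp, Camp and Ltf (678 TS and 182 NTS cells), and cluster 29, led by Retnlg and S100a9 (453 TS and 53 NTS cells). Most NTS cells lay in clusters 7, 8 and 9, led by Acod1, Asprv1, G0s2, Retnlg or Ccl3 itself (1591, 1555 and 1882 NTS cells, with 19, 87 and 94 TS cells). In cluster 9 Ccl3 had 6439 CPM in TS and 4574 CPM in NTS (0.49), and in cluster 8 it had 778 CPM in TS and 1287 CPM in NTS (-0.73). In cluster 11 it had 159 CPM in TS and 320 CPM in NTS (-1.01). Over the 4 clusters with at least 50 cells of each library the mean log2 ratio was -0.39 for Ccl3 and -0.08 for Ccl4, against the pooled -2.59 and -2.57.

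Ccl4 was higher in TS in 2 and lower in 2 of these clusters, with ratios of -0.66 to 0.82. Ccr1 was lower in TS in all 4, with ratios of -1.20 to -0.60 and a mean of -0.89. Its levels were 998 CPM in TS and 1818 CPM in NTS in cluster 9, and 179 CPM in TS and 412 CPM in NTS in cluster 11. The receptor thus kept its direction within the clusters compared, while the 2 ligands did not.

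**Figure D4:**
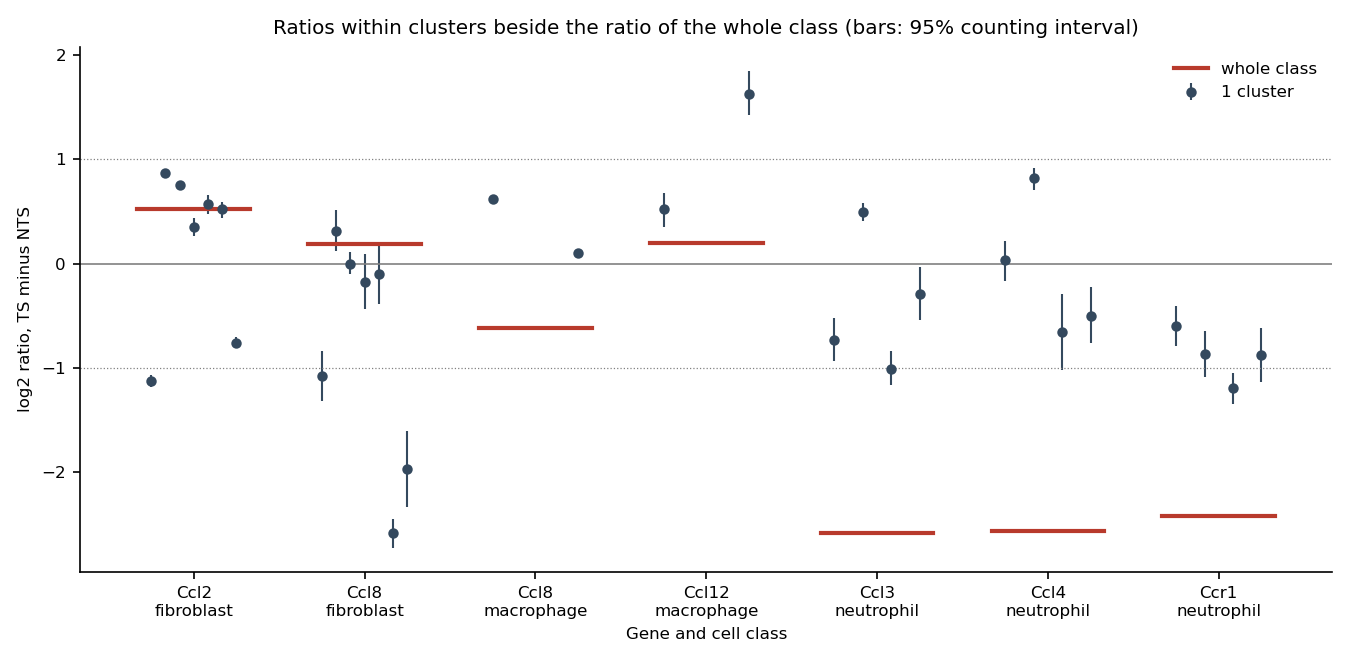
Log2 ratio of TS over NTS in each cluster with at least 50 cells of both libraries (points, bars for the 95% counting interval) beside the ratio of the whole class (red line), for 7 pairs of gene and class. Both macrophage points of Ccl8 lie above 0 while the class lies at -0.62, and the 4 neutrophil points of Ccr1 lie between -1.20 and -0.60 while the class lies at -2.42.

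Cells with granule genes of immature neutrophils had these 3 genes less often. Ngp, a secondary granule gene, was found in 734 of 1389 thinned TS and 442 of 5248 thinned NTS neutrophil-like cells. Ccl3 was found in 10.9% of TS and 36.0% of NTS Ngp-positive cells, against 39.8% of TS and 62.9% of NTS Ngp-negative cells. Ccr1 was found in 17.3% of TS and 48.4% of NTS Ngp-positive cells, against 46.9% of TS and 76.8% of NTS Ngp-negative cells. In both the Ngp-positive and the Ngp-negative cells the TS share stayed below the NTS share.

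Ccl3 and Ccl4 overlapped in single cells. In neutrophil-like cells Ccl4 was found in 35.8% of TS and 43.1% of NTS cells with Ccl3, against 6.11% of TS and 16.6% of NTS cells without it. The top 10% of neutrophil-like cells held 66.1% of the class's Ccl3 UMIs in TS and 48.6% in NTS, and 90.5% in TS and 70.4% in NTS of its Ccl4 UMIs. For Ccr1 the figure was 33.0% in TS and 23.6% in NTS, so the receptor was more evenly spread than its ligands. The profiles most like Ccl3 over the units were those of Acod1 and Trem1 (r = 0.91 each) and Cass4 (0.90), those most like Ccl4 were Rhog (0.91), Arpc3 and Ccrl2 (0.90 each), and those most like Ccr1 were Ncf4 and Igsf6 (0.96 each) and Slfn2 (0.95). Ccl4 was the member most like Ccl3 (0.92).

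In the mononuclear phagocytes the MIP-1 ligands differed less. Ccl3 had 222 CPM in TS and 231 CPM in NTS macrophage-like cells (-0.06, -0.12 to 0.01), 161 CPM in TS and 181 CPM in NTS monocyte-like cells, and 169 CPM in TS and 182 CPM in NTS MHC class II-high cells. The macrophage value hid opposite directions in its clusters, with -0.80 in cluster 15 and 1.05 in cluster 17. Ccl4 was higher in TS in monocyte-like cells, with 355 CPM against 199 CPM in NTS (0.83, 0.72 to 0.95). With each cell assigned by its markers alone, the monocyte-like ratio was -0.87 for Ccl4 and -2.22 for Ccl3, while 10 other settings gave 0.60 to 0.90 for Ccl4 and -0.55 to 0.03 for Ccl3. Ccl4 was lower in TS in MHC class II-high cells, with 126 CPM against 309 CPM in NTS (-1.29, -1.39 to -1.18; -0.61 at Leiden resolution 0.5), and in macrophage-like cells as a whole, with 239 CPM against 350 CPM in NTS (-0.55). Within the macrophage clusters Ccl4 was higher in TS in both, by 0.57 in cluster 15 and 0.05 in cluster 17. T cell-like cells had 182 CPM of Ccl4 in TS and 186 CPM in NTS. The highest T cell level in TS was in cluster 26, with Gata3, Il2ra and Areg among its leading genes, at 792 CPM (160 cells). That cluster had 2 Ccl4 UMIs in 28 NTS cells. The highest T cell level in NTS was in cluster 24, led by Gzma, Ccl5 and Nkg7, at 423 CPM, against 264 CPM in TS.

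Ccr1 in the phagocytes was close to or above its NTS level. It had 384 CPM in TS and 412 CPM in NTS monocyte-like cells (-0.10, -0.19 to -0.01), 319 CPM in TS and 207 CPM in NTS macrophage-like cells (0.62, 0.56 to 0.68), and 313 CPM in TS and 214 CPM in NTS MHC class II-high cells (0.55, 0.44 to 0.66). In TS these 3 classes therefore lay above neutrophil-like cells (264 CPM), while in NTS neutrophil-like cells lay above all of them. Detection of the 2 receptors in monocyte-like cells was not linked: Ccr2 was found in 57.7% of TS and 62.0% of NTS cells with Ccr1, and in 60.6% of TS and 58.9% of NTS cells without it.

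In fibroblast-lineage cells Ccl3, Ccl4 and Ccr1 were near background and lower in TS. Ccl3 had 4.98 CPM in TS and 34.2 CPM in NTS (-2.78), Ccl4 5.50 CPM in TS and 22.1 CPM in NTS (-2.01), and Ccr1 5.04 CPM in TS and 20.5 CPM in NTS (-2.02, or -0.91 with doublets kept). The fibroblast-lineage level of Ccl3 was 1.18% of the neutrophil-like level in TS and 1.34% in NTS, so the 2 classes differed by about the same factor in each library. For the neutrophil marker sum the same quotient was 0.309% in TS and 0.956% in NTS. The 15 neutrophil markers summed to 1222 CPM in TS and 1685 CPM in NTS fibroblast-lineage cells, with 3 of 15 higher in TS and none at 0 in either library. Their part in these ratios was not tested.

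Read as a set, the 8 genes moved in different directions in different classes. At least 2-fold higher or lower is called past the fold here, among genes with at least 100 UMIs in the class. In fibroblast-lineage cells 0 of the 8 were past the fold higher in TS and 4 lower (Ccl12, Ccl3, Ccl4 and Ccr1), beside 6.89% and 5.08% of 13678 genes. The median log2 ratio of the 8 was -0.46 beside 0.04 over all genes. The 4 lower genes were near background there, with thinned shares of 0.195% to 3.11%, and the median includes them. Ccl2 and Ccl7, which had most of their UMIs in this class, had log2 ratios of 0.52 and 0.32. In macrophage-like cells 2 were higher (Ccl2 and Ccl7) and 0 lower, beside 10.7% and 3.72% of 10001 genes, with medians of 0.31 and 0.23. In monocyte-like cells the same 2 were higher and 0 lower, beside 4.05% and 2.56% of 6956 genes, with medians of 0.44 and 0.03.

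In MHC class II-high cells 3 of the 8 were higher (Ccl2, Ccl7 and Ccl12) and 1 lower (Ccl4), beside 5.14% and 3.11% of 8622 genes, with medians of 0.59 and 0.08. In neutrophil-like cells 7 were measured: 1 was higher (Ccr2, at 14.2 CPM in TS and 6.80 CPM in NTS) and 4 lower (Ccl3, Ccl4, Ccr1 and Ccl8), beside 11.8% and 14.6% of 7565 genes, with medians of -1.68 and 0.00. Ccl12 was not measured there, with 15 UMIs in TS and 69 in NTS. Ccl8 in neutrophil-like cells had 51.7 CPM in TS and 166 CPM in NTS (-1.68). This was 1.86% of the macrophage-like level in TS and 3.90% in NTS, while macrophage markers stood at 1.81% in TS and 2.73% in NTS. The macrophage markers summed to 569 CPM in TS and 1109 CPM in NTS neutrophil-like cells (8 of 19 higher, none at 0), and their part in that ratio was not tested.

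Ccl12 in MHC class II-high cells had 25.8 CPM in TS and 4.38 CPM in NTS (2.56, 1.86 to 3.35), and the NTS value rests on 17 UMIs. With doublets kept the ratio was -0.45, with each cell assigned by its markers alone it was -0.09, and the other 3 clusterings gave 0.00 to 0.58. In the fibroblast lineage it had 1.5 CPM in TS and 3.25 CPM in NTS (-1.12, -1.44 to -0.80), at thinned shares of 0.213% in TS and 0.195% in NTS, below those of T cell-like cells and read as background, and the ratio was 0.13 in cells thinned to 1000 UMIs. Macrophage markers in MHC class II-high cells summed to 5467 CPM in TS and 3458 CPM in NTS (14 of 19 higher, none at 0), and in monocyte-like cells to 11192 CPM in TS and 5503 CPM in NTS (15 of 19 higher, none at 0). Their part in the ratios of Ccl12 was not tested.

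Other CC chemokines included genes at least 2-fold higher in TS in each phagocyte class. In macrophage-like cells 4 of 8 measured genes of this list were at least 2-fold higher and 2 lower, beside 10.7% and 3.72% of all genes, with a median log2 ratio of 1.19. Ccl24, an eosinophil chemokine, had 207 CPM in TS and 15.8 CPM in NTS, and Ccl5, a T cell chemokine, had 37.3 CPM in TS and 281 CPM in NTS. In monocyte-like cells 3 of 4 were higher and 0 lower, beside 4.05% and 2.56% of all genes (median 1.46), with Ccl6 at 2153 CPM in TS and 592 CPM in NTS. In MHC class II-high cells 4 of 8 were higher and 1 lower, beside 5.14% and 3.11% of all genes (median 1.26), and Ccl17, a ligand of CCR4, had 947 CPM in TS and 72.2 CPM in NTS. In the fibroblast lineage 4 of 12 were higher and 1 lower, beside 6.89% and 5.08% (median 0.49). In neutrophil-like cells 1 of 5 was higher and 2 lower, beside 11.8% and 14.6% (median -0.58).

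Of the other chemokine receptors, 3 of 10 measured in the fibroblast lineage were higher and 3 lower, beside 6.89% and 5.08% of all genes. In macrophage-like cells 1 of 7 was higher and 3 lower, beside 10.7% and 3.72%. In monocyte-like cells 1 of 5 was higher and 0 lower, beside 4.05% and 2.56%, and in MHC class II-high cells 0 of 6 were higher and 1 lower, beside 5.14% and 3.11%. In neutrophil-like cells 0 of 5 were higher and 3 lower, beside 11.8% and 14.6%, led by Ccrl2, an atypical receptor that binds chemerin, at 483 CPM in TS and 5123 CPM in NTS, and Cxcr4, at 87.4 CPM in TS and 255 CPM in NTS. Of the other monocyte attractants and growth factors, 1 of 9 was higher in the fibroblast lineage and 2 lower, beside 6.89% and 5.08%. In neutrophil-like cells 0 of 6 were higher and 3 lower, beside 11.8% and 14.6%. Csf1, the macrophage growth factor, had 76.6 CPM in TS and 410 CPM in NTS neutrophil-like cells. For the same list 1 of 6 was higher and 1 lower in macrophage-like cells, beside 10.7% and 3.72%. The counts in monocyte-like cells were 1 of 5 higher and 0 lower, beside 4.05% and 2.56%. Those in MHC class II-high cells were 0 of 6 higher and 0 lower, beside 5.14% and 3.11%.

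No measured adhesion gene was past the fold higher in TS in the 5 classes, where 4.05% to 11.8% of all genes were. In the fibroblast lineage 2 of 11 were lower, beside 5.08% of all genes. Vcam1, the ligand of the monocyte integrin VLA-4, had 104 CPM in TS and 224 CPM in NTS, and Selplg, the P-selectin ligand, 5.10 CPM in TS and 10.4 CPM in NTS. Icam1, an integrin ligand within the fold there, had 150 CPM in TS and 77.7 CPM in NTS (0.95). In neutrophil-like cells 3 of 10 were lower, beside 14.6% of all genes, with a median of -0.42. Among them Icam1 had 60 CPM in TS and 264 CPM in NTS (-2.14), and Selplg 212 CPM in TS and 623 CPM in NTS (-1.55). In macrophage-like cells 1 of 11 was lower, beside 3.72% of all genes, Vcam1 at 42.8 CPM in TS and 230 CPM in NTS. In monocyte-like cells 1 of 8 was lower, beside 2.56%, F11r at 11.3 CPM in TS and 29.6 CPM in NTS. In MHC class II-high cells 1 of 10 was lower, beside 3.11%, Pecam1 at 4.73 CPM in TS and 9.80 CPM in NTS. Of the genes of receptor signalling, 0 of 12 were higher in the fibroblast lineage and 2 lower, beside 6.89% and 5.08% of all genes. They were Rgs2, which dampens G protein signals, at 18.8 CPM in TS and 42.6 CPM in NTS, and Rac2, a GTPase of blood cells, at 7.27 CPM in TS and 15.1 CPM in NTS. In the other 4 classes the measured genes of that list were within the fold. Of all genes there, 4.05% to 11.8% were higher and 2.56% to 14.6% lower.

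Most measured genes of the cytokine and NF-kB list were lower in TS neutrophil-like cells, as Ccl3 and Ccl4 were. In neutrophil-like cells 13 of 17 measured genes were at least 2-fold lower in TS and 1 was higher, beside 14.6% lower and 11.8% higher of 7565 genes, with a median of -1.60. Most TS and most NTS neutrophil-like cells lay in different clusters, and these list genes were not compared within clusters. Il1b had 1426 CPM in TS and 8797 CPM in NTS and Il1a 14.2 CPM in TS and 149 CPM in NTS, while Il6 had 28.3 CPM in TS and 7.30 CPM in NTS. Fibroblast-lineage markers in neutrophil-like cells summed to 4163 CPM in TS and 2068 CPM in NTS (40 of 53 higher, none at 0). The part of fibroblast RNA in this Il6 ratio was not tested. In the fibroblast lineage 1 of 18 was higher and 3 lower (median -0.25), beside 6.89% and 5.08% of all genes. The higher one was Il6, at 599 CPM in TS and 173 CPM in NTS. In macrophage-like cells 1 of 17 was higher and 2 lower, beside 10.7% and 3.72%, with Il1b at 541 CPM in TS and 1962 CPM in NTS. In monocyte-like cells 0 of 17 were higher and 1 lower, beside 4.05% and 2.56%. The counts were the same in MHC class II-high cells, beside 5.14% and 3.11%.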

How the data were processed

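Single cells were counted on the 10x Genomics platform in 1 library per group, and the deposited files hold the authors' raw UMI counts, 1 value for each gene in each barcode. Cell Ranger 5.0.1 and GRCm38 are named in the submitters' processing notes, and per the file headers the matrices were written by software version 3.1.0. Whether depth was equalised before deposit is not given in the sources used here. Doublets were called with Scrublet in scanpy. Its automatic threshold removed 0 cells in NTS, so the TS threshold of 0.386 was used in both, chosen after seeing the data, which removed 492 (3.40%) TS and 128 (1.17%) NTS cells. Chemokine and chemokine receptor genes were left out of the variable genes (1961 kept), and 30 principal components, 15 neighbours and Leiden resolution 1.0 gave 33 clusters. Each cluster was named from at least 3 markers of 18 classes, and a class is the clusters of 1 name. Names rebuilt from markers may differ from the study's, and cluster 31 (82 cells) stayed unnamed. CPM, shares, exact intervals and ratios were computed from the counts, ratios for classes with at least 50 cells in each library, and the scripts were tested on simulated data. Named genes were all 8 members, the 3 genes most like each over class-by-library units with at least 50 cells, and up to 2 per direction from each of 6 lists. Clusters and marker genes named besides were chosen after their values were seen. Some items that this rule names are not reported here. The members and lists were chosen with earlier results of these data known. Of 32285 gene IDs, 32158 matched GENCODE M21. The alternatives tried were 2 other scalings, 2 thinnings, a mean over cells, other cell filters, doublets kept, other clusterings and a marker gate. Python 3.11.15, scanpy 1.11.5, numpy 2.4.6, scipy 1.17.1, pandas 2.3.3, igraph 0.11.9 and matplotlib 3.10.9 were used.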

Additional observations from a re-analysis of the deposited data

Results flagged for a closer look

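Ccl12 differed in opposite directions in 2 classes under the same contrast: its log2 ratio of TS over NTS was 2.56 in MHC class II-high cells (25.8 CPM in TS and 4.38 CPM in NTS, the NTS value from 17 UMIs) and -1.12 in fibroblast-lineage cells (1.5 CPM in TS and 3.25 CPM in NTS). Over 13 other settings the MHC class II-high ratio ranged from -0.45 to 2.61, where 5 changed side of the 2-fold limit and 2 turned sign. The fibroblast-lineage level is read as background, at thinned shares of 0.213% in TS and 0.195% in NTS. Its ratio was 0.13 in cells thinned to 1000 UMIs. The difference between the classes was not tested, since each group is 1 library.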

How the results depend on the processing

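No paired analysis was possible because each group is 1 library, and for the same reason no replicate could be left out. Values are log2 ratios of TS over NTS. The results compared are Ccl2 and Ccl7 in the fibroblast lineage (0.52 and 0.32), Ccl8 and Ccl12 in macrophage-like cells (-0.62 and 0.20), Ccr2 in monocyte-like cells (0.13), and Ccl3, Ccl4 and Ccr1 in neutrophil-like cells (-2.59, -2.57 and -2.42). Of 102 values of these 8 results under the settings tried, leaving out the 2 chosen after seeing the data, 87 kept their sign and side of the 2-fold limit, 5 changed side and 10 turned sign. The sign turned for Ccl12 and Ccr2, and the side changed for Ccl8. For the other 31 pairs of gene and class, 332 of 389 values kept both.

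Median-of-ratios scaling gave Ccl2 0.48, Ccl7 0.28, Ccl8 -0.85 and Ccl12 -0.03. Leaving mitochondrial, ribosomal, haemoglobin and S100a8 and S100a9 UMIs out of the total gave Ccl2 0.56, Ccl7 0.36, Ccl8 -0.59, Ccr2 0.20, Ccl3 -2.16, Ccl4 -2.14 and Ccr1 -1.99. Thinning cells to 1000 UMIs gave Ccl2 0.46, Ccl7 0.24, Ccl8 -0.71, Ccl12 0.12, Ccl3 -1.60, Ccl4 -1.41 and Ccr1 -1.83, and Ccl12 in the fibroblast lineage turned to 0.13 with few UMIs left. Thinning to 2000 UMIs gave Ccl2 0.47, Ccl7 0.27, Ccl8 -0.71, Ccl12 -0.01, Ccr2 0.22, Ccl3 -2.35, Ccl4 -2.29 and Ccr1 -2.0. The mean over cells gave Ccl2 0.45, Ccl7 0.29, Ccl8 -0.70, Ccl12 -0.08, Ccr2 0.20, Ccl3 -1.62, Ccl4 -1.47 and Ccr1 -1.84. A minimum of 1000 genes gave Ccl3 -3.47, Ccl4 -3.94 and Ccr1 -2.75.

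With doublets kept, Ccl2 was 0.48, Ccl7 0.28, Ccl8 -1.07, Ccl12 -0.16, Ccr2 -0.13, Ccl3 -2.66 and Ccl4 -2.64, and Ccl12 in MHC class II-high cells turned to -0.45. With the threshold Scrublet set in each library, an alternative chosen after seeing the data, Ccl2 was 0.51, Ccl8 -1.07, Ccl12 -0.15 and Ccr2 -0.13, and Ccl12 in MHC class II-high cells -0.49. Leiden resolution 0.5 gave Ccl8 -1.05 and Ccl12 -0.20, resolution 2.0 Ccl8 -1.32, Ccl12 -0.45 and Ccr2 -0.10, and each library clustered alone Ccl8 -1.23 and Ccl12 -0.35. At resolution 0.5 and with the libraries clustered alone no cluster was named monocyte-like, so Ccr2 has no value there. The marker gate gave Ccl2 0.74, Ccl7 0.51, Ccl8 -1.36, Ccl12 -0.35, Ccr2 0.42, Ccl3 -2.83, Ccl4 -3.02 and Ccr1 -2.51, and Ccl12 in MHC class II-high cells -0.09. The mean over clusters, also chosen after seeing the data, gave Ccl2 0.17, Ccl7 0.02, Ccl8 0.36, Ccl12 1.07, Ccl3 -0.39, Ccl4 -0.08 and Ccr1 -0.89. The cause of these shifts was not tested.

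Among the other pairs, Ccl7 in macrophage-like cells was 0.96 and Ccl2 in MHC class II-high cells 0.98 at resolution 2.0, and Ccr2 in macrophage-like cells passed 2-fold under 5 settings (up to 1.55). The number of genes past the fold was 1637 in the fibroblast lineage, 1447 in macrophage-like, 460 in monocyte-like, 711 in MHC class II-high and 1991 in neutrophil-like cells. At a fold of 1.5 it was 3970, 3492, 1606, 2077 and 3758 in that order of classes, at a fold of 4 it was 338, 272, 56, 132 and 380, and with a minimum of 20 UMIs it was 2738, 2623, 1200, 1693 and 3459. With 1 library per group, depth limits the counting error only and the spread between animals is unknown.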
